A study of Mus musculus with 12 samples.

Results

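The comparison set out here is the loss of Pim1 in peritoneal macrophages that received PBS only: 3 Pim1-/- PBS libraries against 3 wild-type (WT) PBS libraries, 6 of the 12 libraries of the study, taken by their labelled genotype and treatment. The other libraries, 3 Pim1-/- and 3 WT, came from macrophages that received oxidized low-density lipoprotein (oxLDL), at 20 µg/mL and over 8 h. All cells were primary mouse peritoneal macrophages kept in culture medium with serum, and RNA was sequenced with a stranded kit that selects messenger RNA. They entered the filter on low values and the fits, where they help to estimate the spread between libraries, and the genotype difference within them is set beside that in PBS at the end. The labels give no age, sex or strain of the mice, and no description of the Pim1 allele. Nothing states that replicate libraries came from different animals or cultures, so each p-value measures the spread between these libraries, which may be technical. Levels are TPM, an abundance corrected for transcript length and scaled to a fixed total in each library.

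Pim1 is a serine/threonine kinase without a regulatory domain, so its activity follows the amount of protein. Cytokines that signal through JAK kinases and STAT factors induce its gene, and its substrates include cell cycle, survival and translation regulators. Macrophages of the peritoneal cavity are long-lived resident cells that clear debris and respond to microbial and lipid signals. The resident large peritoneal macrophage depends on the factor Gata6.

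Before any gene is read, the 6 libraries differ in ways that bear on every value. The third WT PBS library stood apart: of the 12594 genes tested (at least 1 TPM in at least 3 of the 12 libraries) it listed 2372 at 0, against 175 to 352 in the other 5 PBS libraries, and 1022 of these 2372 had at least 1 TPM in each of those 5. It also held transcripts of lymphocytes, with Nkg7 at 333 TPM, Thy1 at 342 TPM and Cd3d at 61.5 TPM, where the other 5 PBS libraries had at most 2.34, 6.62 and 2.63 TPM. Cd4, Gzma and Prf1 were listed at 0 in it. The summed level of 30 T and NK cell markers was 843, 247 and 860 TPM in Pim1-/- PBS and 54.7, 51.5 and 1430 TPM in WT PBS, and in the Pim1-/- libraries nearly all of it was the chemokine Ccl5 (813, 219 and 811 TPM). When limma estimated a weight for each library, this one received 0.150 on unscaled TPM and 0.181 after scaling, the lowest of the 12, whose other weights ran from 0.386 to 5.89 on unscaled TPM. The share of TPM on Rn45s, a ribosomal RNA precursor row, was 23.3%, 14.9% and 28.9% in the Pim1-/- PBS libraries, against 3.07%, 3.01% and 9.11% in the WT PBS libraries. Mir6236, the other row of ribosomal origin, went the other way, with 2.41%, 0.0553% and 0.509% in Pim1-/- PBS and 10.5%, 16.5% and 2.55% in WT PBS. Both rows together took 25.7%, 14.9% and 29.4% in Pim1-/- PBS and 13.5%, 19.5% and 11.7% in WT PBS, groups that overlapped. Median-of-ratios scaling divided the Pim1-/- PBS libraries by 1.00, 1.47 and 0.912 and the WT PBS libraries by 1.72, 1.81 and 1.56. TPM adds up to 1000000 in each library. The median tested gene moved by -0.41 (log2) without scaling and by 0.09 with it, and each change below can be read relative to those values.

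Pim1 itself, on chromosome 17 (29490753 to 29496112, plus strand, GRCm38/mm10), had 13.9, 10.2 and 30.6 TPM in the Pim1-/- PBS libraries, against 93.1, 68.5 and 77.6 TPM in the WT PBS libraries. Every Pim1-/- library lay below every WT library, yet none was at 0. The means were 18.2 ± 10.9 and 79.7 ± 12.4 TPM (SD, n = 3 each), a log2 change of -2.20 ± 0.65 (SE) on log2(TPM + 1). This difference did not pass limma's threshold, with an adjusted p of 0.0662, and after scaling it was -1.58 ± 0.74 with an adjusted p of 0.225. An exact two-sided permutation test gave p = 0.1 on both scales, the smallest that 3 against 3 libraries allow. The deleted stretch of Pim1 is not given, and a table of 1 value per gene does not place the remaining TPM within it.

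Neither related kinase passed the threshold. Pim2 had 2.95, 6.26 and 1.6 TPM in Pim1-/- PBS and 6.48, 6.66 and 23.3 TPM in WT PBS, with a limma adjusted p of 0.105 before and 0.286 after scaling. Its highest value was in the third WT PBS library, and without that library its log2 change was -0.85 instead of -1.41 unscaled and -0.34 instead of -0.88 scaled. Without the second Pim1-/- PBS library Pim2 passed the threshold on unscaled TPM (-1.80, limma adjusted p = 0.0467). The part of the lymphocyte transcripts of the third WT PBS library in the Pim2 values was not tested. Pim3 had 4.65, 19.9 and 44.4 TPM in Pim1-/- PBS and 19.5, 17.6 and 21.2 TPM in WT PBS, groups that overlapped, with a log2 change of -0.22 unscaled and 0.36 scaled.

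On unscaled TPM, limma called 588 of the 12594 tested genes (4.67%) at an adjusted p under 0.05, of which 511 were lower in Pim1-/- macrophages (4.06%) and 77 higher (0.611%). The median log2 change was -2.01 among the falls and 2.42 among the rises. After median-of-ratios scaling, limma called 3 genes (0.0238%), 2 higher (0.0159%) and 1 lower (0.00794%), among them Ppap2a, which was higher, and Xylt1, which was lower. All 588 genes had the same sign after scaling, but their adjusted p then ran from 0.0173 to 0.239 with a median of 0.0895, and 388 of them lay under 0.1. At an unadjusted p under 0.05, limma's test counted 3546 genes without scaling (28.2%; 7.11% higher and 21% lower) and 2878 with it (22.9%; 15.3% higher and 7.58% lower). All 588 called genes had groups that did not overlap, a property that 6.62% of all tested genes had in the higher and 21.1% in the lower direction. After scaling all 77 rises and 490 of the 511 falls kept it, when the shares of all genes were 14.4% and 10.3%. The 588 were chosen by their difference in these same libraries. Neither their separation nor their kept sign is therefore further support for the calls.

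Single libraries moved these counts as much as scaling did. Without the third WT PBS library, limma called 993 genes on unscaled TPM (7.88%), 83 higher (0.659%) and 910 lower (7.23%), among them 520 of the 588, and 16 after scaling (0.127%), 8 in each direction (0.0635% each). Without the second WT PBS library it called 2 and 1, and without the first 29 and 1. Without the second Pim1-/- PBS library the counts were 1669 and 350, without the first 99 and 0, and without the third 4 and 5. Of the 77 rises, 55 were listed at 0 in the third WT PBS library (71.4%), and 45 of the 77 were still called without that library, as were 475 of the 511 falls. The fitted change of a gene listed at 0 in that library depends on the pseudocount of 1.

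**Figure D1:**
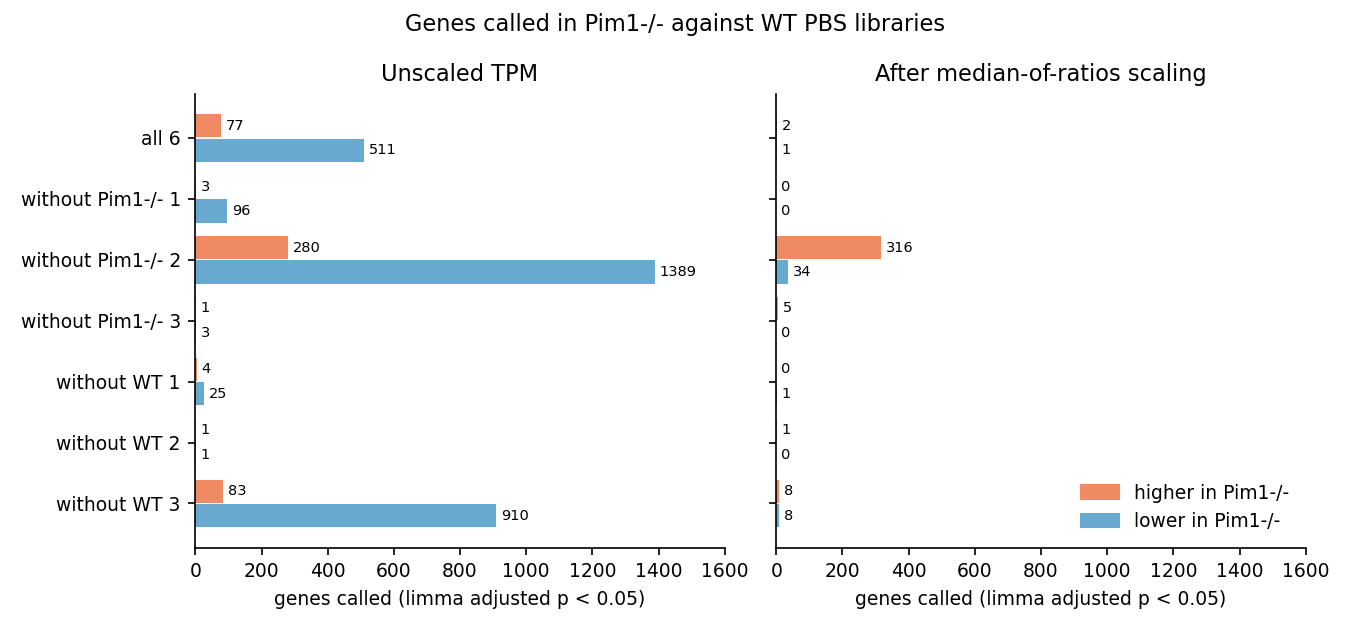
Genes called by limma (adjusted p under 0.05) as higher or lower in Pim1-/- PBS than in WT PBS libraries, with all 6 libraries and with each left out, on unscaled TPM (left) and after median-of-ratios scaling (right). Bars are counts of genes. The unscaled counts run from 1 higher and 1 lower without the second WT library to 280 higher and 1389 lower without the second Pim1-/- library.

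Xylt1 and Ppap2a were among the 3 genes called with and without scaling and with and without the third WT PBS library. Xylt1 (chromosome 7, 117380979 to 117673580), the xylosyltransferase that starts glycosaminoglycan chains on proteoglycans, had 6.23, 6.76 and 4.81 TPM in Pim1-/- PBS, against 92.2, 90.6 and 72.8 TPM in WT PBS. The libraries of each genotype lay close together, with means of 5.93 ± 1.01 and 85.2 ± 10.8 TPM (SD, n = 3 each), and Xylt1 had the smallest adjusted p among the genes named here. Its log2 change was -3.64 ± 0.40 unscaled (limma adjusted p = 0.00275) and -3.01 ± 0.38 scaled (0.0173). Ppap2a (chromosome 13, 112800792 to 112867894), now named Plpp1, a membrane phosphatase of lysophosphatidate and related lipids, had 15.7, 22.8 and 15.4 TPM in Pim1-/- PBS, against 6.14, 5.80 and 6.12 TPM in WT PBS. Its WT libraries were nearly identical, and its change was 1.41 ± 0.34 unscaled (limma adjusted p = 0.0340) and 1.90 ± 0.24 scaled (0.0173).

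The largest fall was in Lamp1 (chromosome 8, 13159161 to 13175338), the most abundant glycoprotein of the lysosomal membrane. It had 289, 228 and 98.8 TPM in Pim1-/- PBS, against 3622, 3642 and 3101 TPM in WT PBS, a log2 change of -4.20 ± 0.60 (limma adjusted p = 0.0115 unscaled and 0.0618 scaled). The highest Pim1-/- library stood far below the lowest WT library. The kinase gene Uhmk1 had 19.2, 12.4 and 3.51 TPM in Pim1-/- PBS, against 193, 206 and 139 TPM in WT PBS (-4.06 ± 0.65). Sgpp1, whose product removes the phosphate from sphingosine 1-phosphate, had 14.5, 11.6 and 3.58 TPM in Pim1-/- PBS and 147, 182 and 108 TPM in WT PBS (-3.90 ± 0.66). In both genes the groups were far apart, and the third Pim1-/- library was the lowest of the 6.

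Cebpa, a factor that directs the making of myeloid cells, had 32.0, 17.8 and 32.1 TPM in Pim1-/- PBS, against 332, 360 and 260 TPM in WT PBS, and its log2 change was -3.53 ± 0.76 (limma adjusted p = 0.0250 unscaled and 0.0957 scaled). Ctbp1, a transcriptional corepressor, had 16.1, 24.1 and 16.9 TPM in Pim1-/- PBS and 215, 250 and 159 TPM in WT PBS (-3.38 ± 0.50). In both regulators every Pim1-/- library was far below every WT library. Cyp11a1, the enzyme that cuts the side chain of cholesterol in the first step of steroid synthesis, had 0.715, 0.735 and 0.104 TPM in Pim1-/- PBS and 15.2, 9.23 and 35.6 TPM in WT PBS (-3.62 ± 0.63). Without the WT PBS libraries, where it was high, Cyp11a1 would not have passed the filter on low values. Its call is therefore weak support for a fall. The other genes of this group were Btbd1 (-3.91), Rnf187 (-3.68), Clptm1l (-3.51), Taf10 (-3.45) and Tmem165 (-3.42), which encode among others an adaptor of ubiquitin ligases, a ubiquitin ligase, a subunit of the general factor TFIID and a Golgi ion transporter. Their unscaled adjusted p by limma ran from 0.0140 for Clptm1l to 0.0465 for Taf10, and their adjusted p after scaling from 0.0618 for Clptm1l to 0.147 for Taf10.

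**Figure D2:**
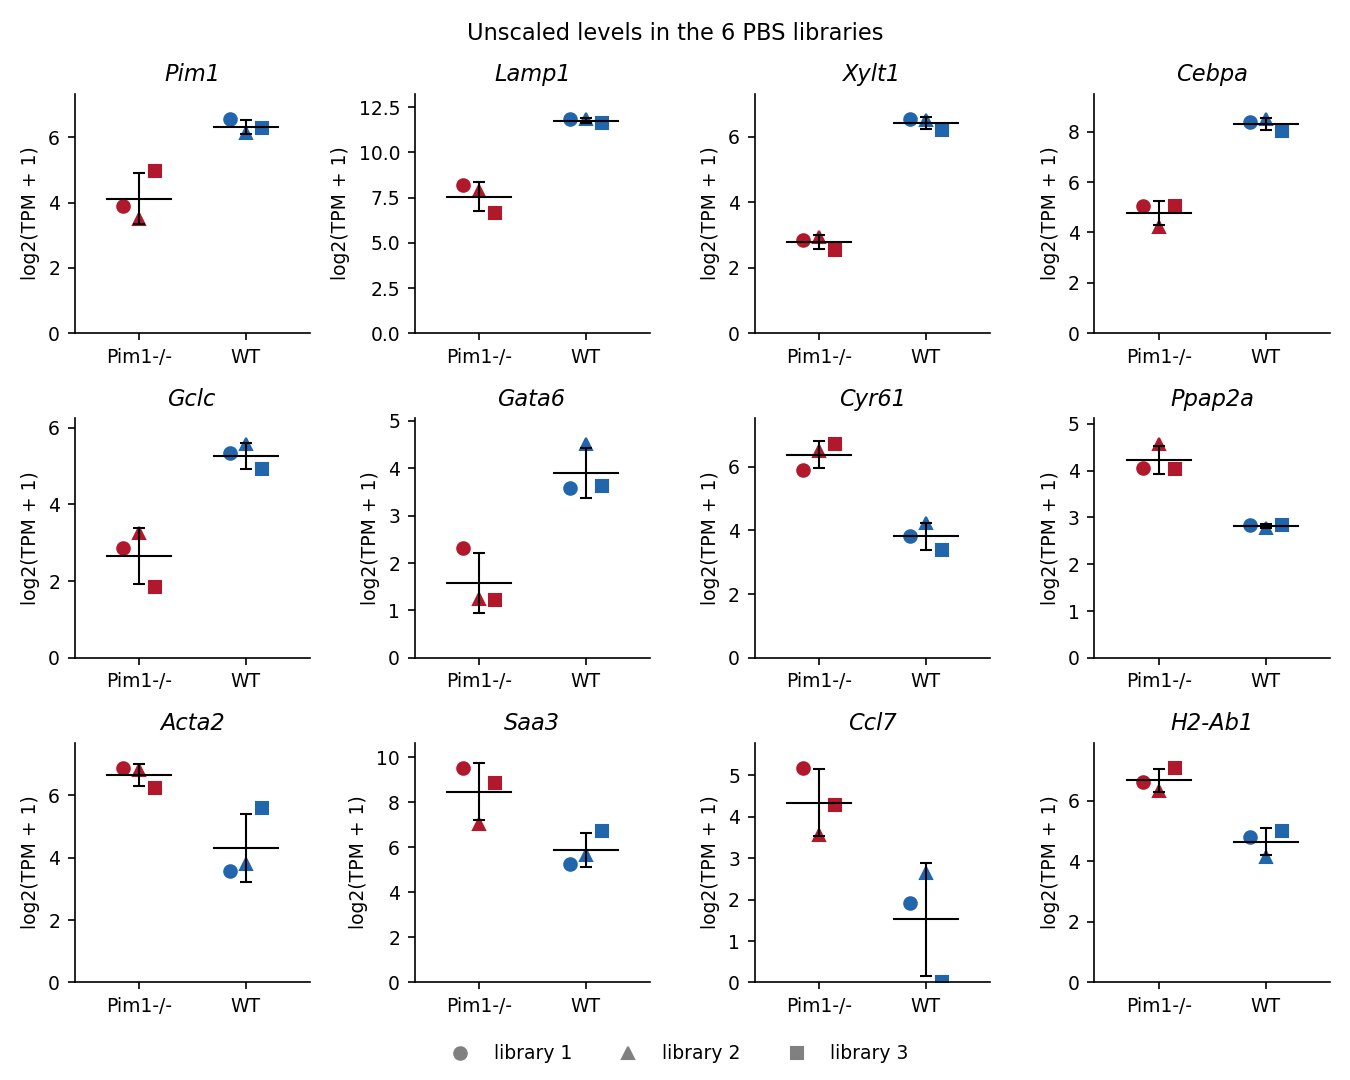
Levels of 12 genes in the 3 Pim1-/- PBS libraries (red, left) and the 3 WT PBS libraries (blue, right), as log2(TPM + 1) without scaling. Symbols mark library 1, 2 and 3, and black lines the mean with its SD. Lamp1, Xylt1, Cebpa and Gclc are lower and Cyr61, Ppap2a, Acta2, Saa3, Ccl7 and H2-Ab1 higher in every Pim1-/- library than in every WT library, Pim1 and Gata6 are lower without passing the threshold, and Ccl7 is at 0 in the third WT library.

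A further set of falls lost its call after scaling by little and regained it once the third WT PBS library was left out as well; these genes were chosen after their values were seen. Slco2b1, an uptake transporter of organic anions, had 0.423, 0.771 and 0.667 TPM in Pim1-/- PBS and 5.94, 12.4 and 15.2 TPM in WT PBS (limma adjusted p = 0.0115 unscaled, 0.0512 scaled and 0.0328 scaled without that library). Rab40c, a small GTPase that recruits a ubiquitin ligase, had 10.5, 13.3 and 8.69 TPM in Pim1-/- PBS and 77.4, 72.2 and 62.3 TPM in WT PBS (adjusted p by limma of 0.0115, 0.0512 and 0.0379 in the same order of fits). The groups were well separated in both. Pomgnt1, which extends sugars on dystroglycan, Engase, a cytosolic glycosidase, and Map3k3, a kinase upstream of MAP kinases, did the same, with unscaled log2 changes of -2.93, -2.46 and -2.66.

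The largest rise was in Orm1 (chromosome 4, 63344560 to 63348163), an acute-phase plasma glycoprotein, with 57.0, 15 and 26.6 TPM in Pim1-/- PBS, against 1.44, 0.243 and 0 TPM in WT PBS. Its log2 change was 4.35 ± 0.87 (limma adjusted p = 0.0207 unscaled and 0.0647 scaled). Ssr2, a subunit of the translocon-associated complex of the endoplasmic reticulum, had 80.7, 45.0 and 72.7 TPM in Pim1-/- PBS and 14.8, 14.4 and 0 TPM in WT PBS. Mrpl13, a mitochondrial ribosomal protein, had 87.4, 27.0 and 28.6 TPM in Pim1-/- PBS and 8.54, 8.46 and 0 TPM in WT PBS. In these 3 genes the groups did not overlap, and the lowest value was the listed 0 of the third WT library. Gng11, a subunit of heterotrimeric G proteins, had 63.9, 17.4 and 69.5 TPM in Pim1-/- PBS and 7.47, 8.58 and 0 TPM in WT PBS. The noncoding Snhg9 had 43.0, 5.54 and 91.6 TPM in Pim1-/- PBS and 1.27, 1.66 and 0 TPM in WT PBS, and the noncoding Epb4.1l4aos 16.6, 8.14 and 27.8 TPM in Pim1-/- PBS and 0.998, 3.22 and 0 TPM in WT PBS. All 3 had the same 0, with groups that did not overlap. Without that library Gng11 had a limma adjusted p of 0.0758 on unscaled TPM.

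Small RNA rows stood among the largest rises, and 6 of 269 tested microRNA and small nucleolar RNA rows were called higher (2.23%, against 0.611% of all genes) and none lower. That balance changed without the third WT PBS library: 5 rows were then called higher and 19 lower, when 0.659% and 7.23% of all genes were. The list's median was then -0.48 unscaled and -0.10 scaled, beside -0.55 and -0.04 for all genes. With that library it was 0.22 and 0.45, beside -0.41 and 0.09 for all genes. Mir7091 had 9.71, 21.7 and 15.7 TPM, Mir6916 20.2, 5.74 and 12.5 TPM and Snord99 6.68, 7.59 and 17.0 TPM in Pim1-/- PBS, and all 3 rows were listed at 0 in each WT PBS library, so no fold is given. Mir7079 had 20.9, 14.2 and 61.9 TPM in Pim1-/- PBS and 5.98, 0 and 0 TPM in WT PBS. Mir6916, Mir7079 and Snord99 passed the filter on low values only through the Pim1-/- PBS libraries, where they were high. Their calls are therefore weak support for a rise. The rows cover hairpins of 63 to 79 bases that lie within introns of coding genes on the same strand, Mir7091 in Dnase1l1 on chromosome X (74274027 to 74274105), Mir6916 in Esyt1 on chromosome 10 (128511968 to 128512030) and Mir7079 in Rpl13 on chromosome 8 (123104975 to 123105043). The library kit selects messenger RNA and is not made for mature microRNAs, which were not measured separately. The mature sequences that RefSeq (GRCm38.p6) gives for these hairpins are shown to identify them, with the seed, bases 2 to 8, in capitals; no seed is shared.
mmu-miR-7091-5p: gUAGGGGUgauagauuccauggc
mmu-miR-7091-3p: aGUGGCUUcugucgucucuag
mmu-miR-6916-5p: cAGGAGGAuggagaugaguca
mmu-miR-7079-5p: aGGGCUGAggcagugaguccug
mmu-miR-7079-3p: uGACUUCUguucucuuuccag

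Some of the 77 rises were genes known from contractile and matrix-forming cells. Apart from Myl9 the ones given here were chosen after their values were seen, and no list of such genes was tested. Myl9, the regulatory light chain of smooth muscle myosin, had 30.5, 19.6 and 19.4 TPM in Pim1-/- PBS, against 1.14, 2.85 and 0 TPM in WT PBS (3.55 ± 0.72, limma adjusted p = 0.0223 unscaled and 0.0618 scaled). Acta2, smooth muscle actin, had 116, 112 and 74.3 TPM in Pim1-/- PBS and 10.9, 12.9 and 46.9 TPM in WT PBS (2.32 ± 0.57, limma adjusted p = 0.0378 unscaled and 0.0618 scaled). The third WT library was closest to the Pim1-/- level, and without it the scaled change of Acta2 passed the threshold (adjusted p by limma of 0.0379). Tagln, an actin-binding protein of the same cells, had 92.0, 53.2 and 50.2 TPM in Pim1-/- PBS and 4.85, 5.64 and 21.8 TPM in WT PBS (2.73 ± 0.65, limma adjusted p = 0.0336 unscaled). Cnn1, calponin, had 6.23, 6.42 and 4.96 TPM in Pim1-/- PBS and 0.269, 0.496 and 0 TPM in WT PBS (2.46 ± 0.47), and Tpm2, a tropomyosin, was called with a change of 2.08 ± 0.54.

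Several genes of secreted proteins, chosen in the same way, were also called. Cyr61, a matricellular protein, had 59.0, 89.4 and 104 TPM in Pim1-/- PBS, against 13.3, 17.7 and 9.39 TPM in WT PBS (2.56 ± 0.51, limma adjusted p = 0.0207 unscaled and 0.0618 scaled). Ctgf, its relative, had 45.3, 88.1 and 117 TPM in Pim1-/- PBS and 7.94, 12.3 and 21.4 TPM in WT PBS (2.51 ± 0.62). In neither gene did the groups overlap. Timp1, an inhibitor of matrix metalloproteinases, had 213, 51.7 and 126 TPM in Pim1-/- PBS and 9.88, 8.28 and 32.2 TPM in WT PBS (2.91 ± 0.77). Inhba, the activin A subunit (1.83), Loxl2, a collagen crosslinking enzyme (1.91), Cthrc1, a collagen-associated secreted protein (2.64), Tgfb1i1, an adaptor induced by TGF-beta (2.10), and Ankrd1, a mechanosensitive nuclear protein (2.41), were also called higher on unscaled TPM.

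Fibroblasts and mesothelial cells also express these contractile and matrix genes. The summed level of 22 mesothelial and fibroblast markers was 1106, 1664 and 2224 TPM in Pim1-/- PBS and 483, 969 and 613 TPM in WT PBS, groups that did not overlap. Most of it was collagen: Col1a1 had 336, 580 and 1230 TPM in Pim1-/- PBS and 154, 323 and 186 TPM in WT PBS. Bgn, the proteoglycan biglycan, had 179, 286 and 131 TPM in Pim1-/- PBS and 70.3, 119 and 66.5 TPM in WT PBS, and Sparc, a matrix glycoprotein, had 237, 226 and 134 TPM in Pim1-/- PBS and 77.4, 112 and 123 TPM in WT PBS (limma adjusted p = 0.0618 and 0.0738 scaled). In both the groups did not overlap. No member of the list was called among 16 tested, and 13 of the 16 were positive after scaling. The mesothelial markers Msln and Krt19 stayed at or under 0.637 TPM in all 6 libraries, while Wt1 and Upk3b had 4.56 to 8.26 and 1.16 to 2.48 TPM in Pim1-/- PBS and 2.95 to 19.3 and 4.51 to 8.89 TPM in WT PBS. The part of other cells in the contractile rises was not tested. In bulk RNA, more or fewer cells of a type and more or less RNA per cell cannot be told apart.

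The promoters of Acta2 and Myl9 are printed because both hold the CArG box, the site that serum response factor binds in genes of the contractile apparatus. The search took CC, then 6 bases of which at least 5 were A or T, then GG, a pattern that reads alike on both strands. Each window runs from 250 bases before to 50 after the RefSeq start (GRCm38.p6), on chr19:34255324-34255623, minus strand, for Acta2 and chr2:156775214-156775513, plus strand, for Myl9, with boxes in capitals.
Acta2: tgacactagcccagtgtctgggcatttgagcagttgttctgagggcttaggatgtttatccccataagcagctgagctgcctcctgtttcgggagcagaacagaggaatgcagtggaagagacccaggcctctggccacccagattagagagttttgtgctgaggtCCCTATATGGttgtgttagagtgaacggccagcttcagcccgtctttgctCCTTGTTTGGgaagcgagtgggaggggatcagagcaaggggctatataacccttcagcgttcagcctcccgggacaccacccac
Myl9: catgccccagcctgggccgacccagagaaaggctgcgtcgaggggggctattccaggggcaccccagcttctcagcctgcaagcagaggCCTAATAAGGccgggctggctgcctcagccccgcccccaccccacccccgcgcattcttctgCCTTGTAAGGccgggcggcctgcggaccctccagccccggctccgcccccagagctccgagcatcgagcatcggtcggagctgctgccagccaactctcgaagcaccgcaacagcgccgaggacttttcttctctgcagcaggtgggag
Both windows held 2 boxes. Of all 32851 promoter windows in the RefSeq table, 9.98% held at least 1 box and 0.822% at least 2. Among tested genes with a window, 9.18% held at least 1. Of the 41 called rises with a window 6 held at least 1 (14.6%), and of the 379 called falls with a window 27 did (7.12%). The windows of Cnn1, Tpm2 and Ankrd1 held none, and Tagln had no window in the table.

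Markers of the macrophage itself did not move as one. Of 17 pan-macrophage markers none was called, and Csf1r and Adgre1 pointed one way while Cd68 and Cd14 pointed the other. Csf1r, the receptor for macrophage colony-stimulating factor, had 155, 402 and 222 TPM in Pim1-/- PBS and 726, 777 and 494 TPM in WT PBS, and Adgre1, which encodes F4/80, had 91.0, 245 and 63.9 TPM in Pim1-/- PBS and 391, 525 and 249 TPM in WT PBS (limma adjusted p = 0.0927 and 0.0934 unscaled). Cd14, the lipopolysaccharide coreceptor, had 170, 223 and 221 TPM in Pim1-/- PBS and 64.2, 45.7 and 124 TPM in WT PBS, with a limma adjusted p of 0.0618 after scaling, and 0.0328 once the third WT library was also left out. Cd68, a lysosomal glycoprotein, had 3733, 2578 and 2550 TPM in Pim1-/- PBS and 1217, 967 and 2128 TPM in WT PBS. None of these 4 genes passed the threshold with all 6 libraries, although their groups did not overlap on unscaled TPM.

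Among 25 large peritoneal macrophage markers, of which 20 were tested, 1 was called higher (Saa3) and 1 lower (Itga6), each 5.00%, against 0.611% and 4.06% of all genes. Saa3, a serum amyloid protein induced in inflamed macrophages, had 725, 132 and 462 TPM in Pim1-/- PBS and 37.6, 49.2 and 104 TPM in WT PBS (2.59 ± 0.65, limma adjusted p = 0.0390 unscaled and 0.0739 scaled). Itga6, a laminin-binding integrin, had 12.4, 16.5 and 5.57 TPM in Pim1-/- PBS and 44.4, 83.2 and 41.0 TPM in WT PBS (-2.23 ± 0.50, limma adjusted p = 0.0283 unscaled and 0.0800 scaled). Gata6, named here after its values were seen, had 3.97, 1.35 and 1.32 TPM in Pim1-/- PBS and 11.0, 21.9 and 11.4 TPM in WT PBS, apart in every library but short of the threshold (limma adjusted p = 0.0612 unscaled and 0.208 scaled). Timd4, another marker of these resident cells, was at or under 0.0971 TPM in all 6 libraries, at or near 0 in both genotypes. The list did not move as one: after scaling 12 of its 20 tested members were positive and 8 negative. Its scaled median was 0.31, beside 0.09 for all genes. Irf8, a lineage factor also chosen after its values were seen, had 70.2, 116 and 171 TPM in Pim1-/- PBS and 354, 285 and 272 TPM in WT PBS (-1.42 ± 0.37, limma adjusted p = 0.0461 unscaled).

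Among 30 lysosome and cathepsin genes, Lamp1 and Npc1 were called lower (6.67%, against 4.06% of all genes) and none higher. Npc1, which exports cholesterol from lysosomes, had 93.8, 95.0 and 40.3 TPM in Pim1-/- PBS and 355, 322 and 129 TPM in WT PBS (-1.77 ± 0.47, limma adjusted p = 0.0474 unscaled and 0.107 scaled), while its soluble partner Npc2, chosen after its values were seen, had 740, 600 and 628 TPM in Pim1-/- PBS and 415, 356 and 527 TPM in WT PBS without passing the threshold. After scaling the list's median change was 0.09, the same as the median of all tested genes, while Lamp1 changed by -3.58 on that scale.

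Both subunits of the enzyme that starts glutathione synthesis fell. Of 25 NRF2 targets and antioxidant genes, 3 were called lower (12.0%, against 4.06% of all genes) and none higher. Gclc, the catalytic subunit of glutamate-cysteine ligase, had 6.26, 8.54 and 2.60 TPM in Pim1-/- PBS and 39.1, 46.8 and 29.0 TPM in WT PBS (-2.62 ± 0.52, limma adjusted p = 0.0207 unscaled and 0.0729 scaled). Gclm, its modifier subunit, had 17.9, 4.46 and 3.94 TPM in Pim1-/- PBS and 84.9, 82.3 and 43.5 TPM in WT PBS (-3.10 ± 0.78, limma adjusted p = 0.0387 unscaled and 0.120 scaled). Srxn1, sulfiredoxin, which reactivates peroxiredoxins, had 62.1, 61.4 and 33.8 TPM in Pim1-/- PBS and 324, 311 and 253 TPM in WT PBS (-2.52 ± 0.46, limma adjusted p = 0.0154 unscaled and 0.0647 scaled). In all 3 genes each Pim1-/- library lay below each WT library. The list as a whole did not follow them: its scaled median was 0.58, above the 0.09 of all genes, and Gstm1, a glutathione transferase, had 486, 400 and 542 TPM in Pim1-/- PBS and 166, 126 and 357 TPM in WT PBS without a call (limma adjusted p = 0.0890 unscaled). Nfe2l2, which encodes NRF2, had 137, 214 and 77.8 TPM in Pim1-/- PBS and 322, 313 and 292 TPM in WT PBS, also without a call (0.109).

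Some antigen presentation genes were higher. Of 11 tested class II genes, 2 were called higher (18.2%, against 0.611% of all genes) and none lower, and without the third WT PBS library 4 were. H2-Ab1 had 97.5, 78.9 and 133 TPM in Pim1-/- PBS and 27.0, 16.6 and 30.7 TPM in WT PBS (2.03 ± 0.46, limma adjusted p = 0.0302 unscaled and 0.0618 scaled). H2-Eb1 had 16.3, 20.7 and 32.9 TPM in Pim1-/- PBS and 4.63, 5.66 and 2.93 TPM in WT PBS (2.14 ± 0.49, 0.0310 and 0.0618). These genes encode beta chains of the class II molecules, and their groups were well separated. Cd74, the invariant chain, had 221, 270 and 519 TPM in Pim1-/- PBS and 68.7, 41.4 and 165 TPM in WT PBS, short of the threshold (limma adjusted p = 0.0637 unscaled). Of 18 class I genes, 1 was called higher (5.56%, against 0.611% of all genes) and none lower. This was H2-Q7, with 20.8, 9.04 and 25.1 TPM in Pim1-/- PBS and 2.43, 0.932 and 6.03 TPM in WT PBS (2.31 ± 0.57, limma adjusted p = 0.0378 unscaled). H2-Q7 belongs to a family of near-identical genes, so its reads could be divided among copies. The scaled medians of the class I and class II lists were 1.21 and 0.66. B cells and dendritic cells also carry class II molecules: the summed level of 11 dendritic cell markers was 51.0, 68.0 and 166 TPM in Pim1-/- PBS and 49.7, 79.5 and 44.6 TPM in WT PBS, and that of 19 B cell markers 52.8, 106 and 71.1 TPM in Pim1-/- PBS and 124, 116 and 145 TPM in WT PBS. Their part in the class II rises was not tested.

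Chemokine and NF-kB genes were called in both directions. Of 30 NF-kB targets and inflammatory cytokines, 2 chemokines were called higher and 2 other genes lower (6.67% each, against 0.611% and 4.06% of all genes). Ccl7, a monocyte attractant, had 34.9, 10.8 and 18.5 TPM in Pim1-/- PBS and 2.78, 5.28 and 0 TPM in WT PBS (2.81 ± 0.69, limma adjusted p = 0.0365 unscaled and 0.0682 scaled). Cxcl2, a neutrophil attractant, was low in all libraries, with 2.97, 2.59 and 2.41 TPM in Pim1-/- PBS and 0.909, 0.150 and 0 TPM in WT PBS (1.49 ± 0.39, 0.0453 unscaled by limma). Neither was called without the third WT PBS library, where limma gave 0.0646 and 0.0785. Ccl8, another monocyte attractant from the list of homeostatic chemokines, had 10.1, 2.87 and 9.38 TPM in Pim1-/- PBS and 0.982, 0 and 0 TPM in WT PBS (2.61 ± 0.64, limma adjusted p = 0.0378 unscaled). It was the only 1 called of the 16 tested members of that list (6.25%, against 0.611% of all genes). Without the third WT PBS library it was not called either. On the other side, Nfkb1, the precursor of the p50 subunit, had 11.9, 19.7 and 10.0 TPM in Pim1-/- PBS and 39.8, 43.6 and 45.6 TPM in WT PBS (-1.62 ± 0.38, limma adjusted p = 0.0336 unscaled and 0.0770 scaled). Tnfaip2, a gene induced by TNF, had 73.9, 72.8 and 72.0 TPM in Pim1-/- PBS and 372, 405 and 296 TPM in WT PBS (-2.27 ± 0.54, 0.0336 and 0.118). Among 21 toll-like receptor genes and adaptors 1 was called, the adaptor kinase Irak1, which was lower (-1.74 ± 0.37, limma adjusted p = 0.0249 unscaled). That share of 4.76% is near the 4.06% of all genes.

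Known relatives of PIM signalling gave few calls. Of 17 PIM substrates, 1 was called, Cdc25a, a cell cycle phosphatase, with 2.59, 3.92 and 2.40 TPM in Pim1-/- PBS and 10.3, 12.0 and 8.69 TPM in WT PBS (-1.53 ± 0.37, limma adjusted p = 0.0365 unscaled and 0.0919 scaled), a share of 5.88% beside the 4.06% of all genes. None of 17 JAK-STAT target genes was called, the nearest being Bcl6, a repressor, which had 23.6, 19.5 and 15 TPM in Pim1-/- PBS and 49.3, 69.6 and 49.7 TPM in WT PBS (limma adjusted p = 0.0512 unscaled). Without the third WT PBS library, limma called Bcl6 lower (0.0475) and Id1, an inhibitor of DNA binding, higher (0.0439) on unscaled TPM. Of 27 translation factors, 2 were called lower (7.41%, against 4.06% of all genes), while the list's scaled median was 0.22, beside 0.09 for all genes. Eif3b, a scaffold of the initiation factor eIF3, had 31.3, 40.3 and 38.6 TPM in Pim1-/- PBS and 172, 210 and 131 TPM in WT PBS (-2.17 ± 0.38, limma adjusted p = 0.0145 unscaled and 0.0676 scaled). The other was Eif4ebp2, a repressor of cap-dependent initiation (-1.80 ± 0.43). Odc1, a MYC target that starts polyamine synthesis, had 39.6, 8.75 and 5.73 TPM in Pim1-/- PBS and 78.1, 73.3 and 63.7 TPM in WT PBS (-2.39 ± 0.55, 0.0311 unscaled by limma). It was the only 1 called of 26 MYC and ribosome biogenesis genes (3.85%, near the 4.06% of all genes).

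Of 25 survival and apoptosis genes, 2 were called lower (8.00%, against 4.06% of all genes) and none higher. At an unadjusted p under 0.05 by limma, 3 members were higher and 9 lower on unscaled TPM, when 7.11% and 21% of all genes were. After scaling 5 were higher and 3 lower, when 15.3% and 7.58% of all genes were. The change of direction between the scales was thus shared with all tested genes. Bcl2 had 3.78, 4.14 and 3.11 TPM in Pim1-/- PBS and 11.6, 12.3 and 19.3 TPM in WT PBS (-1.69 ± 0.36, limma adjusted p = 0.0239 unscaled and 0.0863 scaled). Bcl2l2, which encodes BCL-W, had 3.62, 4.56 and 3.73 TPM in Pim1-/- PBS and 19.9, 24.3 and 11.8 TPM in WT PBS (-1.93 ± 0.49, 0.0403 and 0.154). The Pim1-/- libraries were close to each other and below every WT library in both. Other lists had 1 or 2 calls: Itga4 and Itga6 lower of 22 adhesion genes (9.09%), Tgfb1 and Rxrb lower of 21 TGF-beta and retinoid genes (9.52%), Wasf2 lower of 26 actin genes (3.85%), Egr2 lower of 15 immediate early genes (6.67%), and Chac1 higher with Cebpg lower of 22 ATF4 targets (4.55% each). With 0.611% of all genes called higher and 4.06% lower, 1 call in a list of this size is near the background in the lower direction. Tgfb1, the ligand itself, had 33.0, 17.8 and 52.1 TPM in Pim1-/- PBS and 197, 155 and 99.6 TPM in WT PBS (-2.17 ± 0.54, limma adjusted p = 0.0386 unscaled and 0.171 scaled). The neutrophil list had 1 call of 8 tested (12.5%), Csf3r, the receptor for granulocyte colony-stimulating factor, which was lower (-1.84 ± 0.49).

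In 15 lists of macrophage function no member was called with all 6 libraries: 34 interferon response genes, 25 of cholesterol synthesis, 14 LXR targets, 23 PPAR and lipid droplet genes, 14 scavenger receptors, 19 phagocytosis receptors, 18 complement, 18 inflammasome, 24 glycolysis, 22 TCA cycle, 27 mitotic, 18 unfolded protein response, 14 iron, 16 prostaglandin and 11 heat shock genes. Some members came near: Irg1, which makes itaconate, had 31.2, 59.7 and 27.8 TPM in Pim1-/- PBS and 13.4, 8.97 and 19.7 TPM in WT PBS (limma adjusted p = 0.0618 scaled). Casp4, an inflammatory caspase, had 22.7, 27.0 and 11.3 TPM in Pim1-/- PBS and 9.07, 6.85 and 6.97 TPM in WT PBS (0.0618 scaled by limma). Cfb, complement factor B, had 64.4, 171 and 44.9 TPM in Pim1-/- PBS and 23.3, 23.7 and 21.8 TPM in WT PBS (0.0527 scaled by limma). The groups did not overlap in these 3 genes. With the length trend removed, as described below, limma called Cfb (0.0425), Irg1 (0.0498), Itgb3, an integrin subunit (0.0456), and Cxcl16, a chemokine that also binds oxidized lipoprotein (0.0498), all of them higher. Without the third WT PBS library, members were called lower among the LXR targets (1), phagocytosis receptors (2), inflammasome genes (1) and unfolded protein response genes (1). In that fit 7.23% of all genes were called lower, so 1 or 2 calls in lists of this size are near the background. The scaled medians of the 15 lists ran from -0.16 to 0.35, beside 0.09 for all genes. In the Pim1-/- libraries the summed levels of the scavenger receptors were 6077, 6480 and 3824 TPM, against 7276, 7370 and 6908 TPM in the WT libraries.

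**Figure D3:**
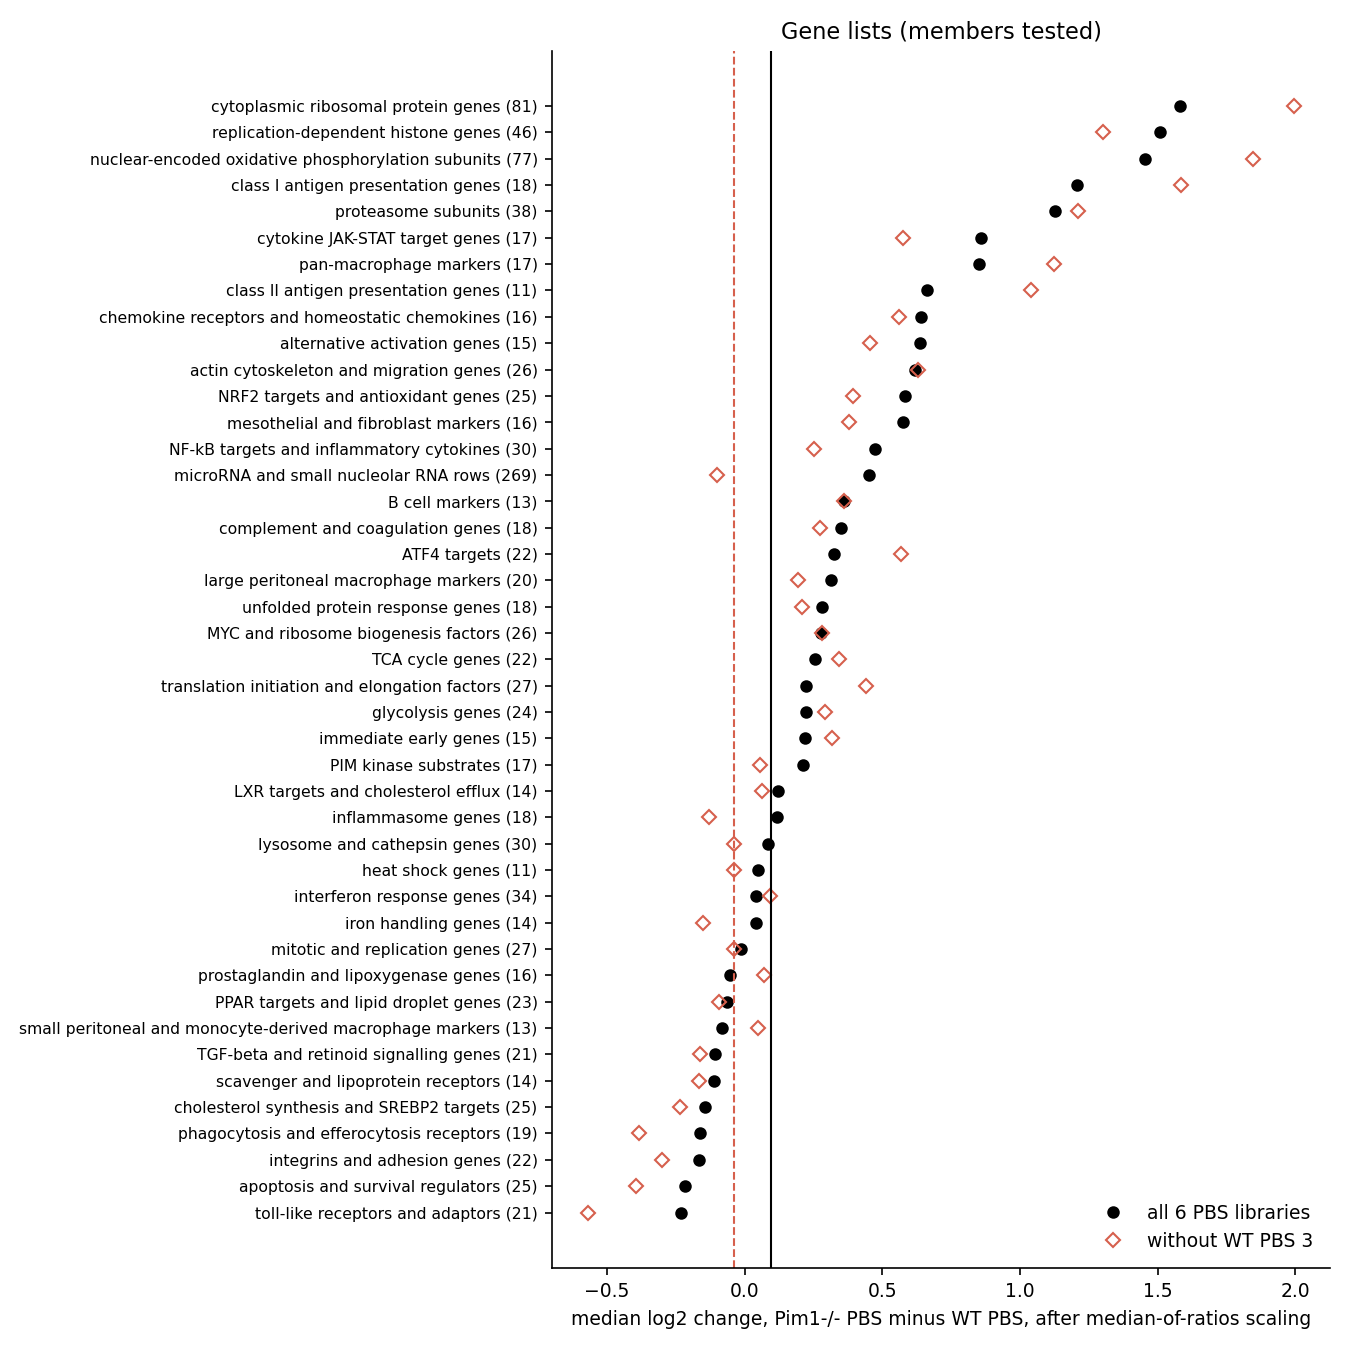
Median log2 change between Pim1-/- PBS and WT PBS libraries after median-of-ratios scaling, for each gene list with at least 10 tested members (number in parentheses), with all 6 libraries (filled circles) and without the third WT PBS library (open diamonds). Vertical lines mark the median of all tested genes, 0.09 (solid) and -0.04 (dashed). Ribosomal protein, histone, oxidative phosphorylation, class I and proteasome genes lie farthest to the right.

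The lists with the highest medians had few or no called members. Cytoplasmic ribosomal protein genes had a scaled median of 1.58 over 81 tested members with none called, nuclear-encoded oxidative phosphorylation subunits 1.46 over 77 with none called, proteasome subunits 1.13 over 38 with none called and replication-dependent histone genes 1.51 over 46 with 3 called higher (6.52%, against 0.611% of all genes). Rpsa, a protein of the small ribosomal subunit, had 558, 240 and 464 TPM in Pim1-/- PBS and 125, 100 and 251 TPM in WT PBS, groups that overlapped. Ndufs6, a subunit of complex I, had 132, 31.3 and 74.3 TPM in Pim1-/- PBS and 20.6, 15.7 and 0 TPM in WT PBS (limma adjusted p = 0.0712 unscaled). The second Pim1-/- library was the nearest to WT in both. Histone messages of this class mostly lack a poly(A) tail, and the libraries were selected for one: Hist1h2ac had 7.29, 3.38 and 7.07 TPM in Pim1-/- PBS and 0.603, 0 and 0 TPM in WT PBS.

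These lists share short transcripts, and transcript length moved with genotype. The median longest transcript was 1094 bases for the ribosomal protein list and 1129 bases for the oxidative phosphorylation list, against 3216.5 bases over all tested genes; it was 1482 bases among the 77 rises and 4239 bases among the 511 falls. Over 5 bins of tested genes from short to long, the median scaled change was 1.02 in the shortest bin (up to 1785 bases), then 0.26, -0.01, -0.07 and -0.22 in the longest bin. The difference between the shortest and longest bins, as the median deviation from the 6-library mean, was 0.784, 0.0109 and 0.999 in the Pim1-/- PBS libraries and -0.642, -1.02 and -0.288 in the WT PBS libraries. The groups did not overlap, and the second Pim1-/- library lay between the others of its group and the WT libraries. When a length trend was removed from each library, an alternative chosen after the data had been seen, limma called 113 genes, 49 higher and 64 lower, 76 of them among the 588. Lamp1 (-3.95), Xylt1 (-2.68), Uhmk1, Sgpp1, Ctbp1, Srxn1, Orm1 (3.51), Cnn1, Cyr61, Inhba, Loxl2 and Cthrc1 were among the calls, while Ppap2a, Cebpa, Gclc, Acta2 and both class II genes were not. Among these uncalled genes, Acta2 (2.58), Cebpa (-3.09) and H2-Eb1 (1.88) had log2 differences close to the unscaled ones (2.32, -3.53 and 2.14). Their adjusted p by limma ran from 0.0611 to 0.0950. H2-Ab1 (1.44 instead of 2.03), Ppap2a (1.15 instead of 1.41) and Gclc changed less than before. So did other genes called on unscaled TPM, such as Bcl2 (-0.91 instead of -1.69) and Npc1 (-1.05 instead of -1.77). Inhba (2.55 instead of 1.83) and Loxl2 (2.57 instead of 1.91) changed more. The effect sizes thus also moved when the trend was removed. The ribosomal protein and oxidative phosphorylation medians then stood 0.27 and 0.22 above the median of all genes. The part of the length trend in the calls was not tested further.

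**Figure D4:**
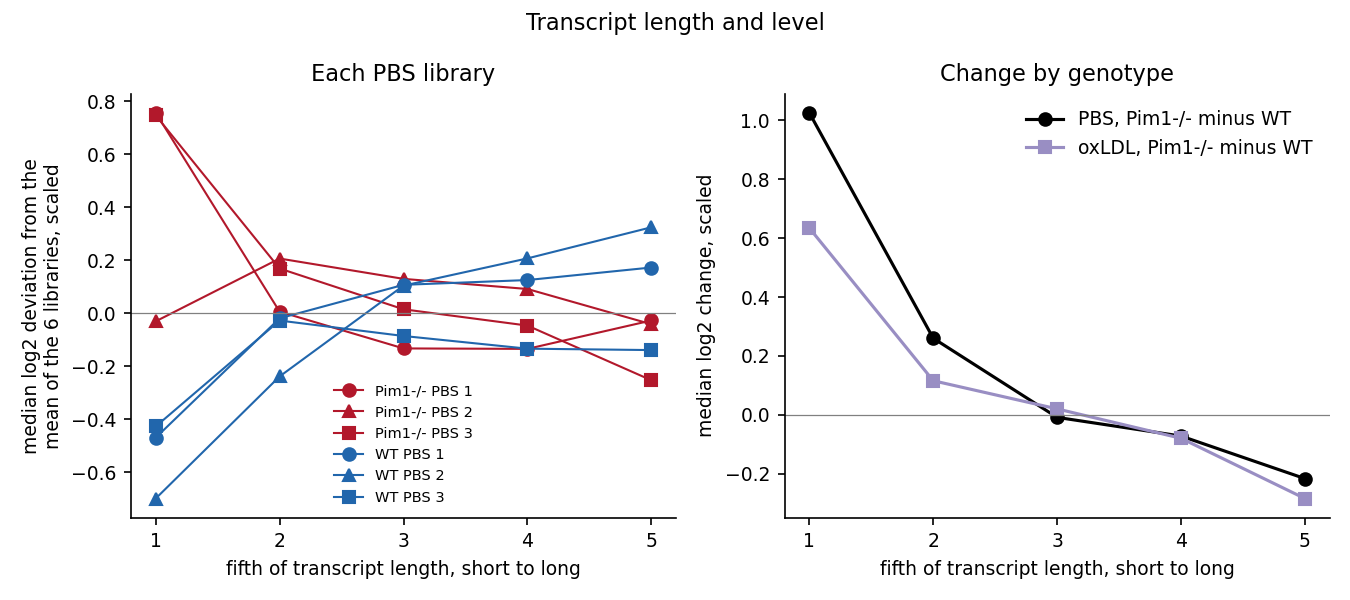
Transcript length and level after median-of-ratios scaling. Left, for each Pim1-/- PBS (red) and WT PBS (blue) library, the median log2 deviation from the mean of the 6 libraries in 5 groups of genes from short to long; right, the median log2 change between Pim1-/- and WT by the same groups, in PBS (black) and oxLDL (purple) libraries. The shortest bin is highest in Pim1-/- libraries 1 and 3 and lowest in the WT libraries, and in both treatments the change declines from left to right.

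The oxLDL libraries allow the sign to be read in libraries the PBS calls did not use for their means. Libraries did not always lie closest to their own genotype: WT oxLDL 2 correlated best with Pim1-/- oxLDL 1 (Spearman 0.977 across genes), and Pim1-/- PBS 2 with WT PBS 1 (0.916). Lamp1, for example, had 120, 90.5 and 91.4 TPM in the Pim1-/- oxLDL libraries and 1329, 194 and 339 TPM in the WT oxLDL libraries. Of the 77 rises, 73 (94.8%) were also higher in Pim1-/- oxLDL than in WT oxLDL libraries after scaling, where 51.2% of all tested genes were. Of the 511 falls, 485 (94.9%) were also lower, where 48.6% of all tested genes were. The median change of the rises was 2.65 in PBS and 1.27 in oxLDL, and that of the falls -1.42 in PBS and -0.83 in oxLDL. Uhmk1 (-3.44 in PBS and -3.08 in oxLDL) and Gclm (-2.46 and -3.65) were low in both treatments, and Orm1 (4.40 and 3.01) and Tagln (3.23 and 2.07) high in both. Xylt1 (-3.01 and -0.59) and Slco2b1 (-2.22 and -0.07) were closer to 0 in oxLDL. The difference of the genotype effect between treatments was tested for every gene, and limma called 1 of 12594 (0.00794%) with and without scaling, Mir7678. That row passed the filter on low values only through the Pim1-/- oxLDL libraries, where it was high. None of the gene-level differences between treatments given here passed. The length trend described above was present in both treatments (0.63 in the shortest and -0.28 in the longest bin in oxLDL), and its part in the shared signs was not tested.

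**Figure D5:**
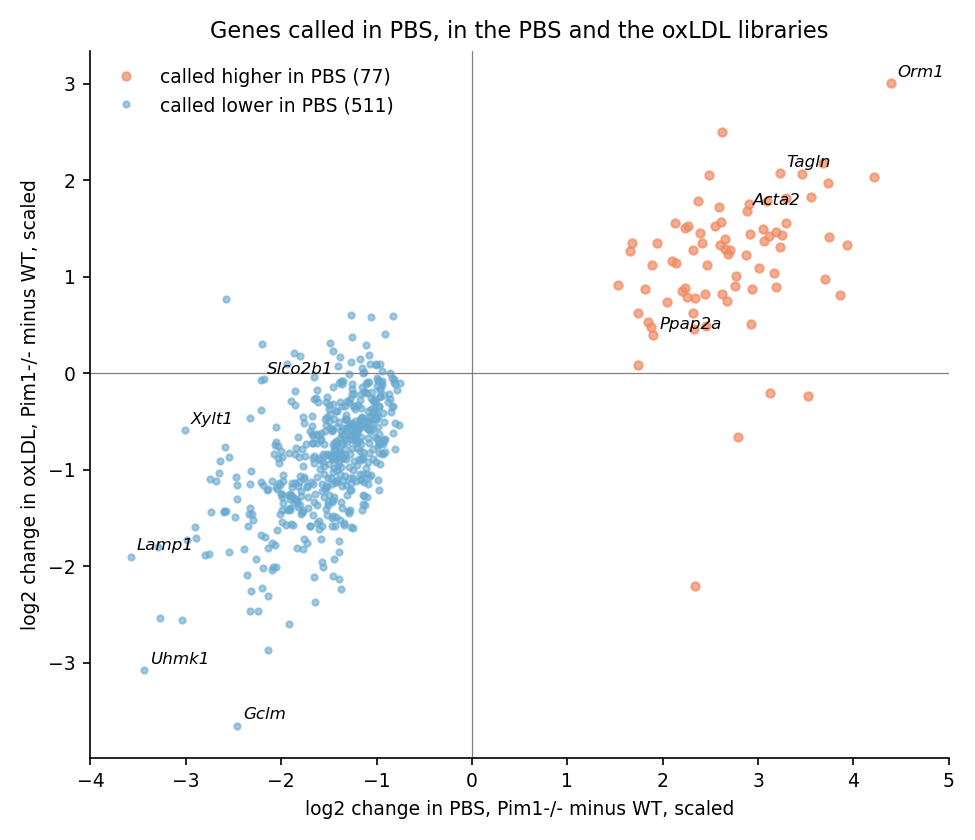
Log2 change between Pim1-/- and WT after median-of-ratios scaling, in PBS libraries (horizontal axis) and in oxLDL libraries (vertical axis), for the 588 genes called in PBS on unscaled TPM (points; 77 higher in orange, 511 lower in blue). In the oxLDL libraries 73 of the rises lie above 0 and 485 of the falls below 0.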

How the data were processed

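The values are TPM per gene, estimated and deposited by the authors in 1 table of 24279 rows and 12 libraries; Salmon, DESeq2 and the build mm10 are named per the submitters' processing notes, while versions, annotation and the role of DESeq2 are not given in the sources used here. No read depth is kept by TPM, so the number of reads behind each value is unknown and no counting interval is given.

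Samples were grouped by labelled genotype and treatment. limma 3.58.1 in R 4.3.3 was fitted to log2(TPM + 1) of genes with at least 1 TPM in at least 3 of 12 libraries, as 4 group means with an intensity trend, and p-values were adjusted by Benjamini-Hochberg over all 12594 genes, with a threshold of 0.05. A fold change on this scale understates the change of low genes. The same fit was run after median-of-ratios scaling, without the third WT PBS library, and under the alternatives described in the closing section. Removing a trend of level on transcript length was chosen after seeing the data. Pim1, Pim2 and Pim3 were also compared by exact permutation. The limma scripts were tested on simulated data.

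Named genes were the 12 largest called changes in each direction whose groups did not overlap and whose higher group averaged at least 5 TPM, the genes called in all 4 fits, and, for each list, at most 3 called members each way (smallest p first) or the 2 members of smallest p where none was called; others are marked as chosen after their values were seen. Members, lists and tests were chosen with earlier results of these data known. Coordinates and transcript lengths are from GENCODE M21 (GRCm38/mm10), and sequences are from RefSeq (GRCm38.p6). Mitochondrially encoded genes were not analysed here. Some results are not reported here.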

Additional observations from a re-analysis of the deposited data

Results flagged for a closer look

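For the difference of the genotype effect between PBS and oxLDL, limma's test called 1 row, Mir7678 (adjusted p = 0.0153 unscaled and 0.00155 scaled). Mir7678 had 10.4, 9.25 and 13.9 TPM in the 3 Pim1-/- oxLDL libraries and was listed at 0 in the 3 WT oxLDL libraries and in all 6 PBS libraries, so no fold is given. The row passed the filter on low values only through the Pim1-/- oxLDL libraries, where it was high, and had no spread in the other groups. Its call is therefore no support for a difference between treatments.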

How the results depend on the processing

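Against 588 genes called by limma on unscaled TPM, the count was 3 after median-of-ratios scaling, 223 when TPM was rescaled without Rn45s and Mir6236, 198 with a pseudocount of 0.1, 963 with a pseudocount of 5, 151 with no filter on low values, 4484 with library weights, 46 with only the 6 PBS libraries in the fit and 113 with the length trend removed. Quantile normalization gave 615, with 345 of the 588 among them, 329 higher and 286 lower. Leaving out 1 library gave 2 to 1669. Every one of the 588 genes kept its sign under each setting that tested it, and the filter at 5 TPM tested 543 of them. They were chosen in these same libraries, so the kept signs are no further support. After scaling, the 3 calls became 1502 with library weights, 0 with only the PBS libraries, and 0 to 350 with 1 library left out, of which 1, 1 and 16 without WT library 1, 2 and 3 and 5 without Pim1-/- library 3. The test of the difference between treatments called 0 to 3 genes with 1 library left out. The share of called genes with the same unscaled sign in oxLDL, 96.9%, ran from 50% (of 2 genes) to 100% with 1 library left out. Pim1 passed the threshold with library weights (-2.36, adjusted p by limma of 0.0150; otherwise -2.63 to -1.89 with 1 library left out). Pim3 was -0.91 to 0.60 with 1 library left out, and turned positive with scaling (0.36), quantile normalization (0.24), the length trend removed (0.19), scaling with weights (0.016), with the PBS libraries only (0.39) and with the block (0.36), and scaled with 1 library left out (0.25, 0.36, 0.41, 0.43 and 1.10). The cause of these shifts was not tested. TPM holds no depth, so how far low values can be trusted is unknown.

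With the replicate number as a replicate block, limma called 321 genes on unscaled TPM, 0 after scaling, and 0 for the difference between treatments. Same-numbered libraries correlated by -0.07, 0.15 and 0.11 in their deviations from the group means, so the numbers were not taken to pair the samples.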
